A study of Mus musculus with 6 samples.

Results

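The genes of the cytosolic ribosomal proteins were followed in forebrain RNA from mice fed a high-fat diet (HFD) or normal chow (NCD). Members were the rows of the count tables whose symbol begins with Rpl or Rps and a digit, plus Rplp0, Rplp1, Rplp2 and Rpsa. Genes of the ribosomal S6 kinases and rows named as pseudogenes were left out. This rule took 88 of 23282 rows, 53 of the large subunit (Rpl symbols) and 35 of the small subunit (Rps symbols). Of these, 77 encode a core ribosomal protein. The other 11 are second copies, retrogenes and paralogs of one, or, for Rps19bp1, a protein that binds Rps19. Fau also encodes a core protein, but its symbol does not match the rule, so it was not counted as a member.

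Both groups were young adult male wild-type C57BL/6J mice, and diet was the only difference that the labels give. There were 3 HFD libraries, from animals on a short-term diet with most of its energy from fat, and 3 NCD libraries. The tissue was whole forebrain without olfactory bulbs and cerebellum, so neurons, glia and vessels were read together and no cell type was selected. RNA was read from the 3′ ends of polyadenylated transcripts.

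Total counts ranged from 6842785 to 9689372 per library. The forebrain markers Neurod6, Bcl11b and Ppp1r1b were present in all 6 libraries, at 99.1 to 155, 279 to 334 and 265 to 316 CPM (counts relative to library size, scaled by the TMM method). A single library stood apart before any result on the members: HFD replicate 3 held 1263 CPM of 4 pituitary markers (Gh, Prl, Pomc and Cga), against 4.17 to 13.2 CPM in the other 5. Gh, the growth hormone gene, alone gave 1092 CPM there. Prl was at 0 counts in NCD replicate 3 and HFD replicate 2, and Cga in NCD replicate 3 and HFD replicates 1 and 2. Results below are therefore also given without HFD replicate 3.

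The ribosome joins a small subunit, which reads the mRNA, to a large subunit, which forms the peptide bonds. Its proteins are made from genes scattered over the genome and are needed in matched amounts. Most of their mRNAs begin with a cytosine and an unbroken run of pyrimidines, the 5′ terminal oligopyrimidine (TOP) motif, through which mTORC1 and the RNA-binding protein Larp1 adjust their translation to nutrients and growth factors. In neurons, ribosomes support protein synthesis in dendrites and axons as well as in the cell body.

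The starts of 8 member genes show this shared feature and its exceptions. Each line gives 20 bases before the annotated RefSeq transcription start and 20 bases from it onward, in build GRCm38.p6, 5′ to 3′ on the gene's own strand. Capitals mark the stretch that the search below counted, pyrimidines only and read from a C at or near the start. Rpl35 (chr2:39005112-39005151, minus strand), Rpl15 (chr14:18270967-18271006, minus), Rps6 (chr4:86857348-86857387, minus) and Rps27 (chr3:90213629-90213668, minus) have a C exactly at the start, followed by pyrimidines. Further pyrimidines precede it in Rpl35, Rpl15 and Rps27. In Rps6 only the c directly before it does, behind a run of g. In Rpl27a (chr7:109519175-109519214, plus) a long run spans the start. Rps27rt (chr9:114982720-114982759, minus), a retrogene of Rps27, has a shorter counted stretch than its parent. Rpl7l1 (chr17:46782637-46782676, minus) and Rpl36al (chr12:69184048-69184087, minus) show paralogs in which the search counted none.
Rpl35: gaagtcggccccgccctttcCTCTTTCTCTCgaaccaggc
Rpl15: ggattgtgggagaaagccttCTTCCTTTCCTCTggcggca
Rps6: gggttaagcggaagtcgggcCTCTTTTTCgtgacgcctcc
Rpl27a: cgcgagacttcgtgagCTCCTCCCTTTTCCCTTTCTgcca
Rps27: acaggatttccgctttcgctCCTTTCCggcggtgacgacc
Rps27rt: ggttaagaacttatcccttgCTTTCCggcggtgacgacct
Rpl7l1: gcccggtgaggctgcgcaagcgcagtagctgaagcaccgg
Rpl36al: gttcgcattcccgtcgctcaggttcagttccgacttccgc

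A RefSeq start was available for 67 of the 88 members. A stretch of at least 5 pyrimidines, beginning with C exactly at the start, was present at 14 of these 67 (20.9%), against 813 of 27025 genes in the whole table (3.01%). Allowing a stretch of at least 7 counted from a C within 10 bases of the start, on the gene's own strand only, gave 30 members (44.8%) against 14.1% of all genes. Of 57 core members with a RefSeq start, 27 (47.4%) had it, so its absence is not particular to the paralogs shown. None of 69 mitochondrial ribosomal protein genes carried the run exactly at its start. These are matches of letters to annotated starts, and an annotated start a few bases off would hide a run.

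The members lay on 19 chromosomes, with 4 genes (Rpl10, Rpl36a, Rpl39 and Rps4x) on the X chromosome. Of the 88, 30 host a total of 58 small nucleolar RNAs in their gene bodies. The annotation calls 86 protein coding and 2, Rpl37rt and Rps4l, transcribed processed pseudogenes. Over the last 300 bases of the transcript, 55 members share at least 1 stretch of 75 bases with another gene, for 54 of them a pseudogene. Because the deposited counts include reads with several alignments, the counts of these 55 may hold reads of their copies.

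Ribosomal protein transcripts made up a similar, small share of the library in 5 of 6 samples and a larger one in the last. They took 1.56%, 1.71% and 1.47% of all counts in NCD replicates 1 to 3, and 1.64%, 1.65% and 2.16% in HFD replicates 1 to 3. The mean was 1.58% ± 0.121 (SD, n = 3) on NCD and 1.81% ± 0.296 (SD, n = 3) on HFD. The diets overlapped, because HFD replicates 1 and 2 lay between the NCD libraries and HFD replicate 3 lay above all others. The 95% Clopper-Pearson interval of that library's share, 2.14% to 2.17%, covers counting error only. With HFD replicate 3 left out, the HFD mean was 1.64%.

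Large and small subunit genes stood in similar proportion in the 6 libraries. The summed count of large subunit genes was 1.72, 1.7 and 1.65 times that of small subunit genes on NCD, and 1.69, 1.72 and 1.68 times on HFD. The mean ratio was 1.69 ± 0.0353 on NCD and 1.69 ± 0.0192 on HFD (SD, n = 3 each), so the difference of 0.00293 was smaller than the spread within either diet. In summed CPM, the large subunit gave 9342 to 10436 on NCD and 10138, 10362 and 14124 on HFD. The small subunit gave 5657 to 6123 on NCD and 6011, 6038 and 8405 on HFD. Thus HFD replicate 3 was the highest library for both subunits while its ratio stayed within the range of the others.

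**Figure D1:**
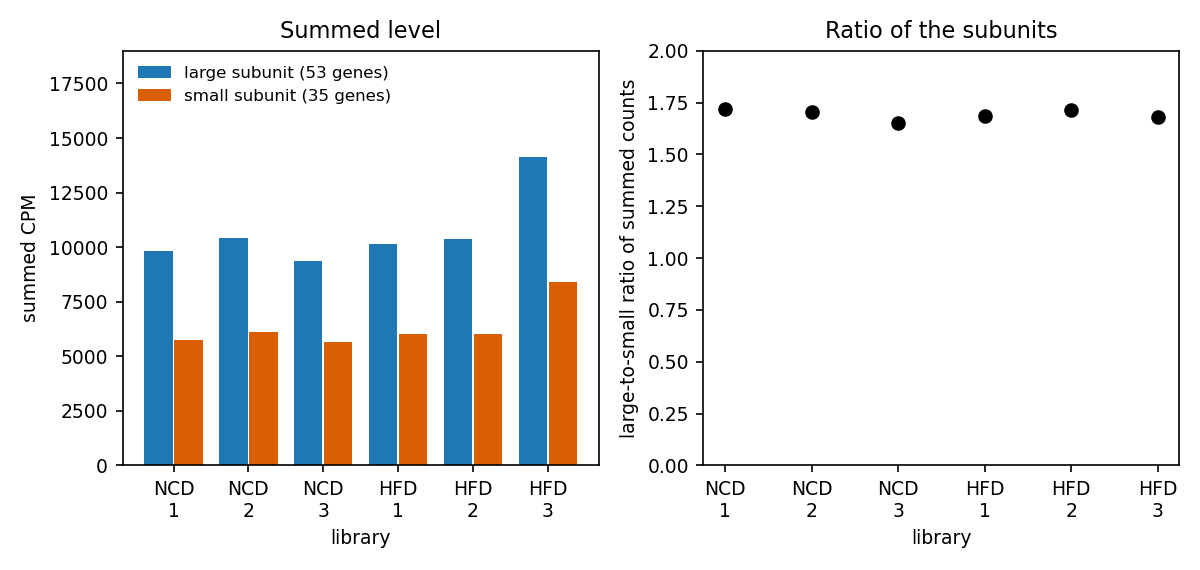
Left, summed CPM (vertical axis, from 0) of 53 large and 35 small subunit genes in each of the 6 libraries. Right, the ratio of their summed counts, one point per library. HFD replicate 3 has the tallest bars, 14124 and 8405 CPM, while all 6 ratios lie between 1.65 and 1.72.

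Individual genes followed the sum. A count filter that 13771 genes passed kept 85 members, 50 large and 35 small. Rpl10l, Rpl39l and Rpl3l did not pass. Expressed as log2 CPM minus the gene's own mean over the 6 libraries, the median member stood at −0.11, −0.018 and −0.20 in NCD replicates 1 to 3 and at −0.052, −0.033 and 0.41 in HFD replicates 1 to 3. The median over all genes tested lay between 0.0032 and 0.0076 in every library. Split by subunit, the medians in HFD replicate 3 were 0.40 (large) and 0.42 (small), and in NCD replicate 3 −0.21 and −0.20. All 85 members were above their own mean in HFD replicate 3, where 50.6% of all genes tested were. That library was the highest of the 6 for 83 members (97.6%, against 26.2% of all genes tested), all except Rpl7l1 and Rps4l. NCD replicate 3 was the lowest for 54 members (63.5%, against 21.7%).

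**Figure D2:**
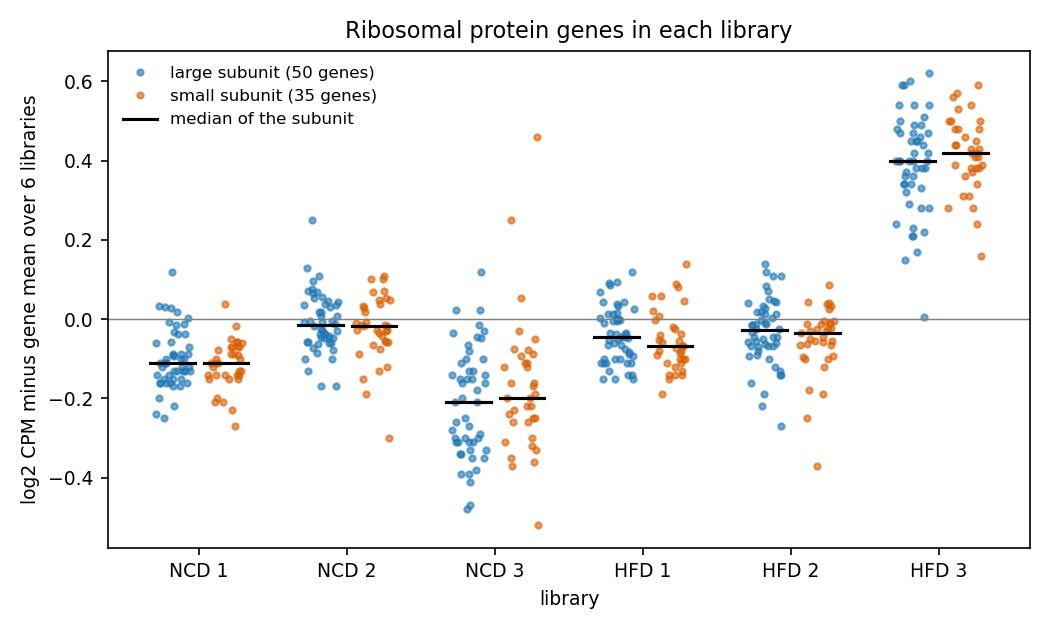
Each point is 1 of 85 ribosomal protein genes in 1 library, as log2 CPM minus that gene's mean over the 6 libraries, with large and small subunit genes side by side and a black line at each median. The points of HFD replicate 3 all lie above 0, and both subunit medians there are at or above 0.40.

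The comparison of the diets asked whether these genes differ between HFD and NCD forebrain. In edgeR's quasi-likelihood test on the 6 libraries, 81 of 85 members had a positive log2 fold change (HFD minus NCD), against 49.4% of all genes tested, and the median was 0.22 (range −0.08 to 0.47), against −0.0025 over all genes. At an unadjusted p under 0.05, 20 members were higher on HFD (23.5%, against 1.71% of all genes tested) and 0 were lower (against 1.98%). After Benjamini-Hochberg adjustment over all 13771 genes, 0 members passed 0.05 (0% of all genes passed), the lowest adjusted p among members being 0.979. DESeq2 also gave 20 members at an unadjusted p under 0.05 (1.31% of all genes), and 0 after adjustment. Thus no single member rose or fell by the adjusted test. Since nothing in the labels says how the 3 samples of a diet were obtained, these p-values measure only the spread between them. In bulk tissue, a different share of a cell type and a different amount of RNA per cell cannot be told apart.

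Most of this shift came with 1 library. Without HFD replicate 3 the median log2 fold change of the members was 0.069 (range −0.32 to 0.30), 63 of 85 were positive, and Rpl17 was the 1 member with an unadjusted p under 0.05 (1.29% of all genes tested were higher at that level). The count of 20 also moved when other libraries were left out, to 2 without NCD replicate 3 (1.36% of all genes in that fit), 8 without NCD replicate 1 (1.54%), 25 without NCD replicate 2 (2.16%), 33 without HFD replicate 2 (1.8%) and 43 without HFD replicate 1 (2.58%). With quantile normalization, the scaling of the study's methods, limma gave 2 members (2.35%), close to the 2.14% of all genes. The median log2 fold change of the members was 0.20 in that fit, which also used another test than edgeR's. The groups were fully apart, with every HFD library above every NCD library, for 16 members (18.8%, against 4.31% of all genes tested), 12 large and 4 small. The opposite order was seen for 0 members (against 4.49%).

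**Figure D3:**
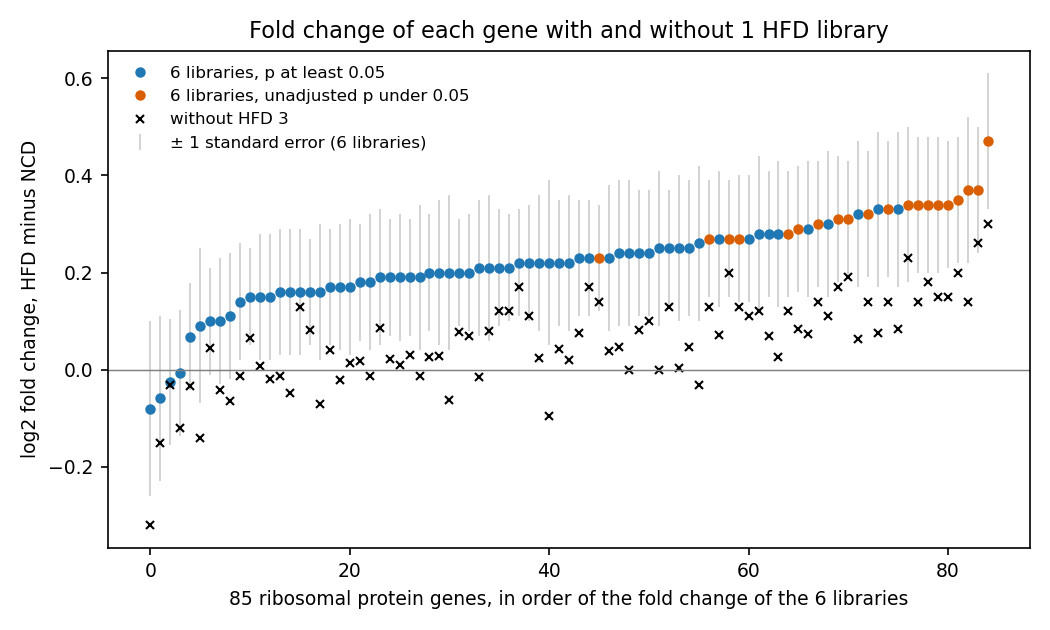
The 85 genes tested are placed from the lowest to the highest log2 fold change of HFD over NCD (vertical axis), with bars of 1 standard error, and crosses give the value without HFD replicate 3. The 20 orange points have an unadjusted p under 0.05, and nearly all crosses lie below their points, around a median of 0.069.

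Among large subunit genes, 12 had an unadjusted p under 0.05 in edgeR's test. Rpl17, whose protein lies at the peptide exit tunnel, had 70, 81.3 and 59.1 CPM on NCD and 83.6, 89.1 and 119 CPM on HFD. The diets did not overlap, although HFD replicate 1 exceeded NCD replicate 2 by little. Its log2 fold change of 0.47 (SE 0.14, edgeR's unadjusted p = 0.00453, adjusted p = 0.979) was the highest of all members, and it was 0.30 without HFD replicate 3 (unadjusted p = 0.0243). Its 3′ end shares a 75-base stretch with 14 other genes.

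Rpl34 had 307, 315 and 262 CPM on NCD and 320, 329 and 498 CPM on HFD. The groups were apart by a narrow margin in HFD replicates 1 and 2, and by a wide one in replicate 3. Rpl9 went from 51.6, 58.2 and 44.2 CPM to 58.6, 63.8 and 76.3 CPM, and Rpl37a from 88.5, 94.6 and 76.1 CPM to 96.9, 102 and 132 CPM. Both were apart between the diets, with NCD replicate 3 lowest and HFD replicate 3 highest. The log2 fold changes were 0.37 (SE 0.15) for Rpl34, 0.37 (SE 0.13) for Rpl9 and 0.35 (SE 0.13) for Rpl37a.

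Rpl15 and Rpl36 were likewise apart: Rpl15 had 113, 107 and 92.3 CPM on NCD and 113, 114 and 150 CPM on HFD, where the lowest HFD value and the highest NCD value differ only beyond the digits given. Rpl36 had 73.7 to 75.5 CPM on NCD and 84.9, 79.3 and 115 CPM on HFD. The remaining large subunit genes of the 12 were Rpl3, whose protein reaches toward the peptidyl transferase centre, Rpl32 and Rpl37, with log2 fold changes of 0.27 to 0.33, and the exit tunnel genes Rpl19, Rpl31 and Rpl35, at 0.31 to 0.34. Of these 6, Rpl35 was apart between the diets and the other 5 overlapped.

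Of the small subunit genes, 8 had an unadjusted p under 0.05 in edgeR's test. Rps3, whose protein sits where the mRNA enters and also takes part in DNA repair, had 267, 291 and 239 CPM on NCD and 300, 289 and 420 CPM on HFD. HFD replicate 2 lay below NCD replicate 2, so the diets overlapped. The log2 fold change was 0.34 (SE 0.13, edgeR's unadjusted p = 0.0209), and 0.15 without HFD replicate 3.

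Rps20, on the head of the small subunit, had 305, 315 and 282 CPM on NCD and 343, 318 and 394 CPM on HFD, without overlap. Rps24 had 315, 344 and 260 CPM on NCD and 328, 347 and 458 CPM on HFD, with HFD replicate 1 inside the NCD range. Rpsa, which is also known as the laminin receptor precursor, had 113, 116 and 101 CPM on NCD and 112, 128 and 161 CPM on HFD. Its lowest HFD library was below 2 of the NCD libraries. Rps10, Rps15, Rps27 and Rps27rt made up the rest, with log2 fold changes of 0.29 to 0.34.

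**Figure D4:**
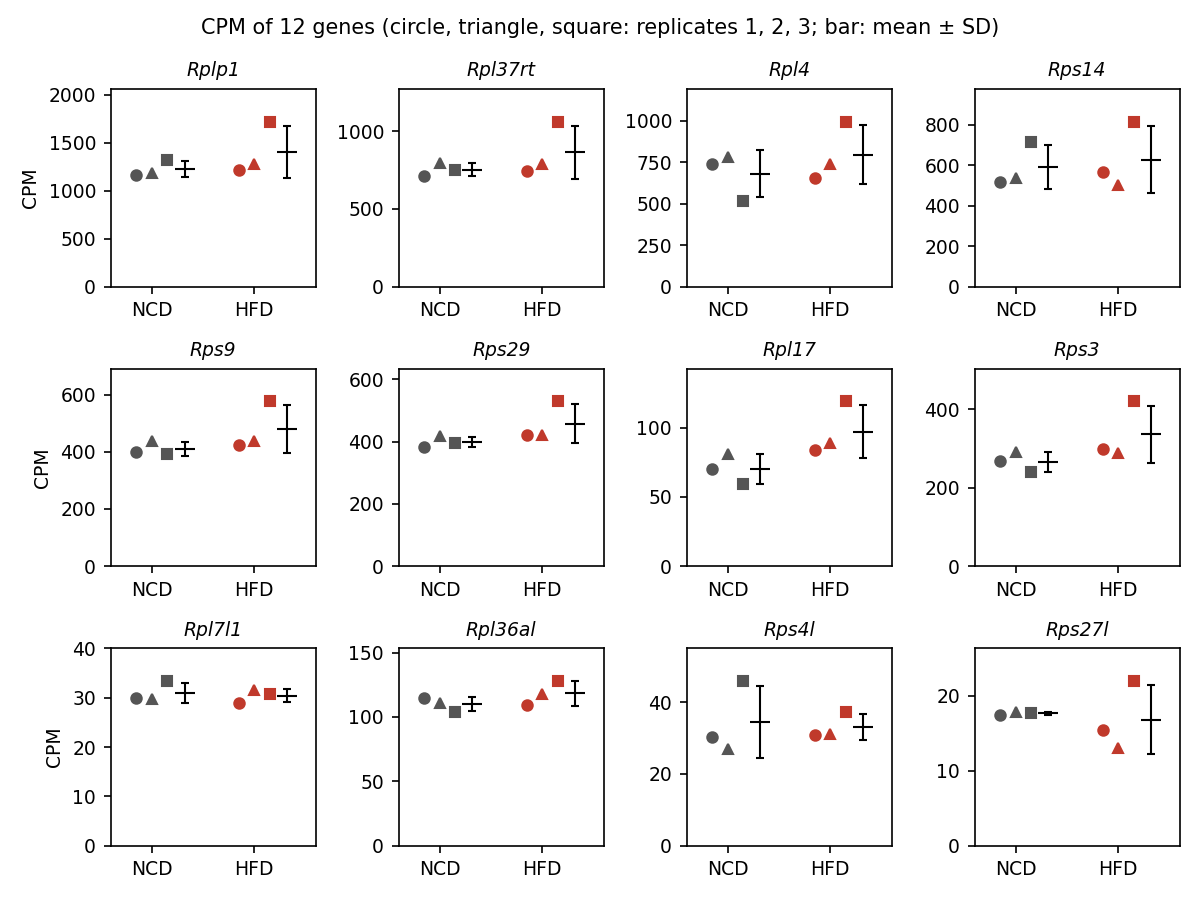
CPM of 12 genes in the 3 NCD (grey) and 3 HFD (red) libraries, each panel from 0 on its own scale, with the mean ± SD of each diet beside the points. The red square, HFD replicate 3, is the highest point in every panel except those of Rpl7l1 and Rps4l.

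The levels of different genes are compared here as counts of 3′ ends, not divided by transcript length, since a 3′ library yields about 1 read position per transcript. On this CPM scale the mean over the 6 libraries ran from 17.3 (Rps27l) to 1315 (Rplp1) among the members tested. Rplp1 had 1168, 1188 and 1324 CPM on NCD and 1219, 1273 and 1716 CPM on HFD. Rpl37rt followed at a mean of 808 CPM and Rpl4 at 739 CPM. The highest small subunit levels were those of Rps14 (608 CPM), Rps9 (444 CPM) and Rps29 (428 CPM). None of these 6 had an unadjusted p under 0.05. Rps14 was unlike most members in NCD replicate 3, where it stood at 713 CPM against 515 and 538 in the other NCD libraries, and its HFD values of 566, 503 and 813 CPM spanned that range.

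Grouped by role, the median log2 deviation in HFD replicate 3 was 0.36 for the P stalk, 0.46 for the 5S particle, 0.46 for the exit tunnel and 0.49 for the decoding and mRNA path. The P stalk, which recruits the elongation factors, is built from Rplp0, Rplp1 and Rplp2 on a base that includes Rpl12. Its 4 genes had log2 fold changes of 0.068 to 0.28, 0 of 4 with an unadjusted p under 0.05. Of all members tested, 23.5% were higher at that level, against 1.71% of all genes tested. Their summed level was 1533 to 1697 CPM on NCD and 1576, 1649 and 2175 CPM on HFD. Rplp2 had the lowest fold change of the stalk, with 244, 229 and 250 CPM on NCD and 223, 248 and 288 CPM on HFD.

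Rpl5 and Rpl11, which carry the 5S rRNA and, outside the ribosome, bind the p53 regulator Mdm2, had log2 fold changes of 0.22 (SE 0.14) and 0.24 (SE 0.15). Their summed CPM was 251 to 320 on NCD and 298, 292 and 425 on HFD, which overlap. Of 8 genes for proteins in and around the peptide exit tunnel, 4 (Rpl17, Rpl19, Rpl31 and Rpl35) had an unadjusted p under 0.05, and the median log2 fold change was 0.32, or 0.13 without HFD replicate 3. Of 8 genes at the decoding site and along the mRNA path, 2 (Rps3 and Rps15) did, with a median of 0.25, or 0.025 without that library. Both counts are to be read against 23.5% of the members tested and 1.71% of all genes tested. Without HFD replicate 3, Rpl17 was the only gene of either list under 0.05 in edgeR's test. The role lists hold too few genes for these counts or medians to be ranked.

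Rps27a, translated as a fusion with ubiquitin, had 242, 259 and 222 CPM on NCD and 246, 245 and 386 CPM on HFD. Rps6, the substrate of the S6 kinases downstream of mTORC1, had 136, 137 and 129 CPM on NCD and 129, 135 and 182 CPM on HFD. In both genes HFD replicates 1 and 2 lay within the NCD range and replicate 3 above it. The log2 fold change of Rps6 was 0.15 (SE 0.13), and −0.02 without HFD replicate 3. The TOP run at its start was shown above.

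The members outside the core set were more varied. Of the 8 that passed the filter, 5 had a positive log2 fold change, 1 (Rps27rt) had an unadjusted p under 0.05, and the median was 0.11, against 0.23 for the 77 core genes. Rpl7l1, a paralog of Rpl7 that acts in ribosome assembly, was the steadiest member, with 29.9, 29.7 and 33.4 CPM on NCD and 28.9, 31.6 and 30.8 CPM on HFD. It did not share the high level of the other members in HFD replicate 3, where it was 0.0058 above its own log2 mean. Beside Rpl7, its count ratio was 0.406 to 0.498 in 5 libraries and 0.318 in HFD replicate 3.

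Rpl36al, which encodes a near-identical form of the Rpl36a protein, varied little as well, at 115, 111 and 104 CPM on NCD and 109, 118 and 128 CPM on HFD. Its count was 1.9 to 2.16 times that of Rpl36a in 5 libraries and 1.48 times in HFD replicate 3, where Rpl36a stood at 86.5 CPM against 47.9 to 60.6 elsewhere. Rpl22l1, a paralog of Rpl22, had 155, 173 and 154 CPM on NCD and 152, 155 and 212 CPM on HFD. Its count ratio to Rpl22 stayed between 0.46 and 0.536.

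Rps27l, a paralog of Rps27 known as a p53 target, was the lowest member tested, at 17.5, 17.9 and 17.7 CPM on NCD and 15.4, 13.1 and 22 CPM on HFD. HFD replicates 1 and 2 were below, and replicate 3 above, all NCD libraries. Its log2 fold change was −0.08 (SE 0.18) and became −0.32 without HFD replicate 3 (edgeR's unadjusted p = 0.0685). Rps4l, annotated as a processed pseudogene and close to Rps4x, had 30.4, 27 and 45.9 CPM on NCD and 30.9, 31.1 and 37.3 CPM on HFD. Its highest library was NCD replicate 3, where its count ratio to Rps4x was 0.445, against 0.24 to 0.281 elsewhere.

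Rps27rt and Rpl37rt were each counted higher than the parent gene, Rps27rt by 2.01 to 2.47 times and Rpl37rt by 2.52 to 3.05 times across the 6 libraries. The start of Rps27rt printed above resembles that of Rps27, and its 3′ end shares 75-base stretches with other genes, so reads of the Rps27 family cannot be assigned to 1 locus from these counts. Rpl37rt shares no such stretch, but only exact matches were searched, so reads of copies are not excluded. Rps19bp1, the binding protein, was low at 27, 29.7 and 27.4 CPM on NCD and 31.1, 28.5 and 36.4 CPM on HFD.

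The 3 members under the filter are paralogs best known from other tissues. Rpl3l, of heart and skeletal muscle, had 0 to 5 counts per library. Rpl39l had 2 counts in NCD replicate 1 and in HFD replicate 2 and 0 in the rest, and Rpl10l, which stands in for the X-linked Rpl10 in male germ cells, had 1 count in HFD replicate 1 and 0 in the rest. A count of 0 allows up to 3 counts, which is 0.31 to 0.438 CPM in these libraries, and no fold change is given for them.

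Variation between libraries differed from gene to gene. Among the 85 tested, the SD of log2 CPM over the 6 libraries was lowest for Rpl7l1 (0.0739), Rpl36al (0.105) and Rpl8 (0.119). Rpl8, a core protein near the peptidyl transferase centre, had 312 to 322 CPM on NCD and 332, 330 and 390 CPM on HFD, without overlap. The SD was highest for Rpl17 (0.341), Rps21 (0.322) and Rpl30 (0.313). Rpl30 had 64.1 to 69.9 CPM on NCD and 66.9, 59.3 and 110 CPM on HFD, so the same diet held both its lowest and its highest library. Rpl29, which also showed no shift in the mean, had 51.8 to 59 CPM on NCD and 52.8, 47.6 and 62.6 CPM on HFD (log2 fold change −0.0071, SE 0.13).

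Transcript length moved with the deviation of HFD replicate 3. Members are short, with a median transcript of 791 bases against 2987 over all genes tested. Among the other genes, the median log2 deviation in HFD replicate 3 was 0.32 for transcripts of up to 500 bases (95 genes) and 0.24 for 501 to 750 bases (282 genes). It was 0.19 for 751 to 1000 bases and −0.12 for transcripts over 5000 bases. The medians of the members did not follow this slope, at 0.44, 0.40 and 0.40 in the 3 shortest classes. The class of 2001 to 3000 bases held 3 members, with a median of 0.44. Rpl5 and Rpl22 stood at 0.45 and 0.44 there, but Rpl7l1, the longest of the 3, at 0.0058. The other genes of that class had a median of 0.0059. Taken relative to the other genes of the same length class, the median log2 fold change of the members was 0.17 in place of 0.22, a comparison chosen after seeing the data.

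**Figure D5:**
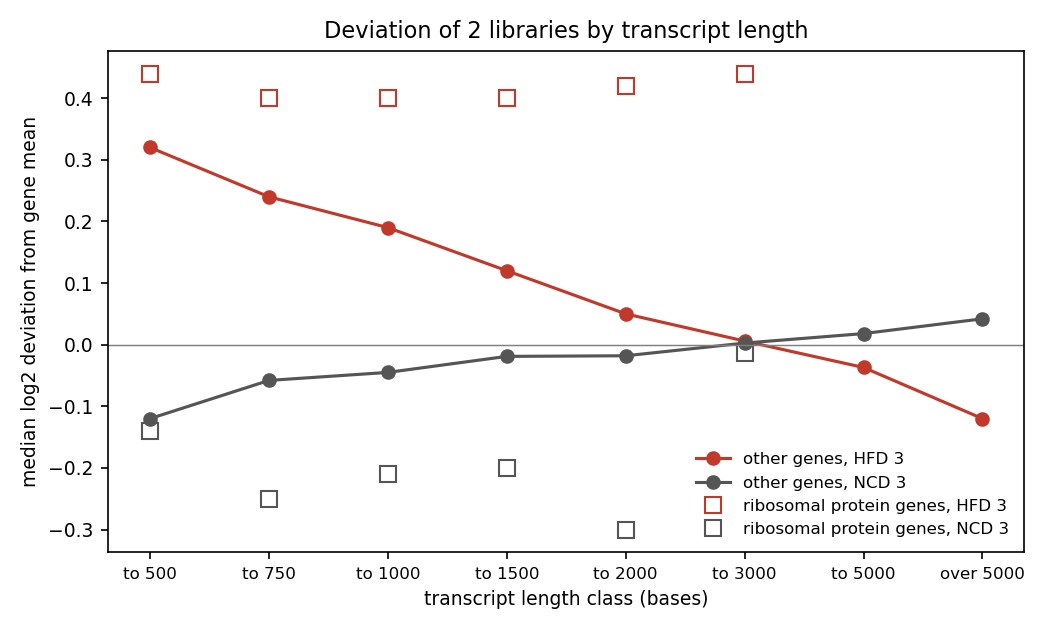
Median log2 deviation from the gene's mean (vertical axis) in HFD replicate 3 (red) and NCD replicate 3 (grey), by transcript length class in bases (horizontal axis). Lines are genes that are no members, and open squares are members in classes with at least 3 of them. The red line falls from 0.32 to −0.12 while the red squares stay at 0.40 to 0.44.

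Members whose 3′ end is shared with another gene and those whose end is not behaved alike in their medians. The median log2 fold change was 0.22 in each, for 55 and 30 tested genes. This split does not separate out all genes with copies. Rplp2, Rpl31, Rpl14 and Rps15a share no such stretch, yet rows named as their pseudogenes were counted. The part of shared reads in the fold changes was therefore not tested. The 30 hosts of small nucleolar RNAs and the 55 members that host none also had a median of 0.22 each. The 4 X-linked members had 0.20 to 0.25.

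Other parts of the translation machinery were counted from lists. Of 77 mitochondrial ribosomal protein genes, which build the separate ribosome of that organelle, 1 was higher (Mrps33) and 0 were lower at an unadjusted p under 0.05 in edgeR's test, shares to be read against 1.71% and 1.98% of all genes. Their median log2 fold change was 0.087, and −0.012 without HFD replicate 3. It was positive for 63 of the 77 (against 49.4% of all genes tested). Their median log2 deviation in HFD replicate 3 was 0.22. Mrps33 had 44.7 to 57.1 CPM on NCD and 57.7, 58.7 and 81.7 CPM on HFD. The highest levels in this list were those of Mrps25, with 163 to 182 CPM on NCD and 168, 179 and 199 CPM on HFD, and Mrpl53, with 80.9 to 103 CPM and 90, 104 and 127 CPM, and both overlapped. Of 18 other genes whose mRNAs are known TOP mRNAs, 0 passed in either direction, with a median of 0.16, or 0.036 without that library. The log2 fold change was positive for 15 of the 18, and the median log2 deviation in HFD replicate 3 was 0.30. Eef1a1, the elongation factor that brings aminoacyl-tRNAs, had 574 to 706 CPM on NCD and 623, 684 and 980 CPM on HFD, whereas Eef2, the translocation factor, had 782 to 814 CPM and 802, 800 and 770 CPM. These are both TOP mRNAs, and HFD replicate 3 was the highest library for the former and the lowest for the latter.

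Genes that assemble and regulate ribosomes gave medians near 0. Among 24 ribosome biogenesis genes, 0 were higher and 1 was lower at an unadjusted p under 0.05, with a median log2 fold change of −0.011. The lower gene was Gar1, a protein of the H/ACA particles that guide pseudouridylation, with 36.2, 37.9 and 50.7 CPM on NCD and 33.7, 30.7 and 23.8 CPM on HFD. These groups were apart, in the direction opposite to the members (log2 fold change −0.50, SE 0.16, edgeR's unadjusted p = 0.0061, adjusted p = 0.979). The highest levels in this list were those of Ncl, which codes for nucleolin (465 to 556 CPM on NCD, 516 to 591 CPM on HFD), and Nop10 (86.4 to 94.9 CPM and 90.8 to 110 CPM). Of 17 genes of mTORC1 signalling to the ribosome, 0 passed in either direction and the median was 0.0041. Larp1, the TOP-binding repressor, had 172 to 197 CPM on NCD and 195, 179 and 109 CPM on HFD, lowest in HFD replicate 3. Its log2 fold change was −0.21 (SE 0.16, edgeR's unadjusted p = 0.216), and a link to the members' level was not tested. Eif4e, the cap-binding factor, had 113 to 124 CPM on NCD and 112, 115 and 141 CPM on HFD. Of 66 translation factors tested, 0 were higher and 1, Eif2b4, was lower, with a median of 0.039.

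Some measures outside translation moved in the same library as the members, and others differed between the diets without that library too. The pituitary markers given above stood at 1263 CPM in HFD replicate 3 alone. The Rn45s row, the precursor of the ribosomal RNAs, took 6.18%, 5.62% and 7.35% of counts on NCD and 5.55%, 6.99% and 8.75% on HFD. The summed level of 6 neuron markers was 6152 to 6711 CPM on NCD and 6472, 6291 and 5753 CPM on HFD. In HFD replicate 3, Camk2a, Syt1 and Gad1 were at their lowest and Snap25 was at its highest. Rbfox3 and Slc17a7 lay within the range of the other libraries. For 5 red blood cell markers the sum was 421 to 519 CPM on NCD and 699, 544 and 824 CPM on HFD. Of the 5, 4 were higher on HFD at an unadjusted p under 0.05 in edgeR's test. Their median log2 fold change was 0.56, and 0.46 without HFD replicate 3. For 4 liver markers the sum was 7.8 to 42.3 CPM on NCD and 2.75 to 9.62 CPM on HFD, and all 4 were lower at that level. The liver median was −2.15, and −1.78 without HFD replicate 3. Astrocyte (1674 to 1823 CPM), oligodendrocyte (6920 to 8560 CPM), microglia (271 to 296 CPM), endothelial (79.2 to 111 CPM), choroid plexus (1028 to 1287 CPM) and cerebellar (30.6 to 44.4 CPM) marker sums overlapped between the diets, and HFD replicate 3 lay outside the range of the other libraries for the astrocyte sum alone. The part of any of these in the members' level was not tested.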

How the data were processed

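Libraries were made from forebrain RNA with a 3′ mRNA-Seq kit primed on the poly(A) tail. Per the study's methods, reads were trimmed, aligned to mm10 with Bowtie2 and counted with bedtools, with unique and multiple alignments both kept. The annotation, the strand setting and tool versions are not given in the sources used here. The authors deposited 1 table of raw counts per gene and library, before the quantile normalization that their methods describe. Whole-number counts of 23282 rows, 6842785 to 9689372 per library, were used as deposited.

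Samples were grouped by the diet in their labels. Counts were tested with edgeR 4.0.16 (R 4.3.3): filterByExpr (minimum count 10, minimum total 15), TMM scaling, the quasi-likelihood test on all 6 libraries with diet as the only term, and Benjamini-Hochberg adjustment over 13771 genes. CPM values are TMM-scaled, and log2 CPM used a prior count of 2. Diets with 3 libraries each allow an exact permutation p of no less than 0.1, so none was run on single values. Alternatives were DESeq2 1.42.0, quantile normalization with limma 3.58.1, other scalings and filters, robust dispersion, genes over 2% of counts left out, a replicate block, core genes alone and each library left out. The fits were tested on simulated data.

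The members and lists were chosen with earlier results of these data known, so no p-value is given for a list. Named members are the 3 highest in level per subunit, the 3 highest and 3 lowest fold changes per subunit, those with an unadjusted p under 0.05, those under the filter, those outside the core set, the role groups, and the 3 highest and 3 lowest in SD; in the lists of other translation genes, those with an unadjusted p under 0.05 and the 2 highest in level. Rpl7, Rpl36a, Rpl22, Rpl10, Rps4x and Rps27 stand beside their copies. Gene positions, transcript lengths and shared stretches came from GENCODE annotation of the same build, and start sites from RefSeq (GRCm38.p6). Some items are not reported here.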

Additional observations from a re-analysis of the deposited data

How the results depend on the processing

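The 20 members with an unadjusted p under 0.05 and a higher level on HFD became 2 with quantile normalization and limma (2.14% of all genes in that fit), 11 with scaling by library size alone (1.1%), 38 of 88 with no count filter (2.15%), and 4 with a replicate block (1.14%); the cause was not tested. Without HFD replicate 3 the count was 1 and without HFD replicate 1 it was 43, the range over the 6 libraries left out in turn. It was 2 without NCD replicate 3, 8 without NCD replicate 1, 25 without NCD replicate 2 and 33 without HFD replicate 2. DESeq2, upper-quartile scaling, a stricter filter, robust dispersion, core genes alone and leaving out genes over 2% of counts gave 19 to 21. No setting gave a member lower on HFD at that level, or a member with an adjusted p under 0.05; the lowest adjusted p was 0.116, with no filter, where 23 of all genes passed. Deviations of same-numbered libraries correlated at −0.03, 0.052 and −0.057 over 13771 genes. Such a correlation over all genes cannot show whether samples of 1 number were handled together. The rows over 2% of counts, Akap5, Lrrc17 and Rn45s, took their largest shares in NCD replicate 3 and HFD replicate 3. For Akap5 these were 2.6% and 2.7%, against 1.68% to 2.04% in the other libraries. Whether the replicate numbers pair the samples was therefore not settled.

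The median log2 fold change of 0.22 was 0.20 with quantile normalization and limma. It ranged from 0.069 (without HFD replicate 3) to 0.31 with single libraries left out. Both subunits gave the same picture, at 0.064 to 0.30 (large) and 0.072 to 0.33 (small). The difference in the large to small ratio ran from −0.0171 to 0.0164, and that in the share of counts from 0.0617 to 0.32 percentage points. Of 765 alternative values of named members, 14 turned in direction, all with a library left out. Over the 6 fits with 1 library fewer, log2 fold changes, lowest without HFD replicate 3, ran from −0.064 to 0.20 for Rpl22l1, −0.095 to 0.39 for Rpl30, −0.034 to 0.15 for Rplp2, −0.14 to 0.25 for Rps14, −0.001 to 0.38 for Rps23, −0.041 to 0.18 for Rps28, −0.02 to 0.24 for Rps6, −0.12 to 0.081 for Rpl29 and −0.32 to 0.079 for Rps27l. They ran from −0.055 to 0.034 for Rpl7l1 and −0.21 to 0.21 for Rps4l, both lowest without NCD replicate 2 and highest without NCD replicate 3. Beyond counting error, pairs of libraries of 1 diet differed over the 85 members by 3 to 20.8 times the Poisson expectation (chi-square per degree of freedom, pooled over genes).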

Other observations

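The 7 rows named as processed pseudogenes of ribosomal protein genes, which the rule left out, were each highest in HFD replicate 3, at a log2 deviation of 0.30 to 0.66 from their own mean. Rplp2-ps1 had the highest level of the 7, with 491, 469 and 570 CPM on NCD and 474, 483 and 638 CPM on HFD, above the 223 to 288 CPM of Rplp2 itself. Rpl34-ps1 had 280, 287 and 228 CPM on NCD and 292, 303 and 450 CPM on HFD, close to Rpl34 library by library, and a log2 fold change of 0.39 (SE 0.15, edgeR's unadjusted p = 0.0159). Rpl31-ps12, at 40 to 48.4 CPM in 5 libraries and 76.3 CPM in HFD replicate 3, had the largest deviation of the 7. Reads with several alignments were counted, so a pseudogene and its parent may hold the same reads.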
